A study of Mus musculus with 2 samples.

Results

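The genes examined here mark the inhibitory neurons of the cerebral cortex. They are Gad1 and Gad2, the 2 glutamate decarboxylases that make GABA (gamma-aminobutyric acid), Slc32a1, the transporter that loads GABA into synaptic vesicles, the calcium-binding proteins Pvalb, Calb1 and Calb2, the secreted glycoprotein Reln, the lysosomal membrane protein Lamp5, and Adarb2, an RNA-binding relative of the RNA-editing adenosine deaminases. They were chosen by name, and all 9 were found among the 55413 annotated genes, of which 21938 are protein-coding. For each gene, DNase I hypersensitive sites (DHSs, peaks of accessible DNA) and footprints (short protected stretches inside accessible DNA) were taken within 1 kb of any transcription start site (TSS), in the gene body, and up to 50 kb from a TSS.

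Accessibility was measured by DNase-seq, in which DNase I cuts open chromatin and the released DNA is sequenced. The 2 libraries, numbered replicates 1 and 2, came from the left cerebral cortex of 14-day-old B6CASTF1/J mice, both female. The strain is the F1 hybrid between C57BL/6J and CAST/EiJ. The labels give the tissues separate animal numbers under 1 donor record, name no treatment, and put both libraries in 1 group. There was therefore no comparison of conditions and no test, and a mean ± SD (n = 2) describes only the spread between these libraries.

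GABA is the main inhibitory transmitter of the adult cortex. The neurons that release it are a minority of cortical cells and fall into classes that are told apart by proteins such as parvalbumin (Pvalb), calretinin (Calb2), reelin (Reln) and Lamp5. Calb1, Calb2 and Reln are also made by other cortical cells in some layers or at some ages. The tissue was measured whole, so a site open in few cells and a site with little accessible DNA per cell cannot be told apart.

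Replicate 1 held 90059 peaks and 199455 footprints, and replicate 2 held 175597 peaks and 416840 footprints. A region with a peak of both libraries is called shared, and 78165 regions were. The signal is the deposited height of a peak. Its values were whole multiples of 1 step per library, but the scale factor behind the step is not stated, so the depth is unknown. The tissue label was checked against marker promoters. A promoter peak stood in both libraries at 6 of 6 markers of all neurons and at 7 of 8 markers of glutamatergic neurons, against 0 of 6 liver markers. Such a peak stood at 62.7% of all protein-coding genes. It also stood at 4 of 6 astrocyte and 4 of 6 oligodendrocyte-lineage genes, near that share, and at 2 of 6 microglial and 2 of 6 endothelial or pericyte genes, below it. These counts depended on the library. In replicate 2 alone 5 of 6 microglial, 5 of 6 endothelial or pericyte and 2 of 6 liver genes had a promoter peak, beside 67.8% of protein-coding genes.

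The sites below carry the results that follow. They are printed from the mm10 reference, 5′ to 3′ on the strand of the gene, and capitals mark bases that lay inside a footprint of both libraries. The first pair comes from Gad1: its promoter DHS, at chr2:70561101-70561340 on the + strand, and the site with the highest signal among all shared non-promoter sites of the 9 genes, at chr2:70558241-70558400. Both lie in an intron of a longer Gad1 transcript and of the antisense gene Gad1os.
Gad1 promoter: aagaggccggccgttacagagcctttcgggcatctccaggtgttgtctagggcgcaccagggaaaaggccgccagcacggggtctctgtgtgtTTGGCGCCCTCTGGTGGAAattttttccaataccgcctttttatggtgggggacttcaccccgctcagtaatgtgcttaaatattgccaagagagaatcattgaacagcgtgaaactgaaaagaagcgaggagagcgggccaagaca
Gad1 −3.72 kb: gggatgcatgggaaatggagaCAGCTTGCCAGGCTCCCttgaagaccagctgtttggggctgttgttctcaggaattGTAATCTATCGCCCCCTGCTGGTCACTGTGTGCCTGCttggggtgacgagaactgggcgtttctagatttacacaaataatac

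For Slc32a1, the 3 non-promoter sites with the highest mean signal are shown, all on the + strand. The first is intronic, at chr2:158613621-158613840, and the others are intergenic, at chr2:158641961-158642160 and chr2:158653121-158653280.
Slc32a1 +2.96 kb: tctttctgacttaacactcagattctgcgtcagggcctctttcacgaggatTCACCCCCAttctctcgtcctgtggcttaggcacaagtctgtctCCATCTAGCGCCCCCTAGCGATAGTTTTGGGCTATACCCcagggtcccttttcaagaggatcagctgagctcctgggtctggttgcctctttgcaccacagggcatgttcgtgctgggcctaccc
Slc32a1 +31.3 kb: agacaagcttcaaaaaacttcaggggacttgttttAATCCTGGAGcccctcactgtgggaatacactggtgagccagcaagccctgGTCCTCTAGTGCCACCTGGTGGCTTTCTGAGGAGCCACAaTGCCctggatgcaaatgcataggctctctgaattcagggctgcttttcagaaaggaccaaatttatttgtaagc
Slc32a1 +42.4 kb: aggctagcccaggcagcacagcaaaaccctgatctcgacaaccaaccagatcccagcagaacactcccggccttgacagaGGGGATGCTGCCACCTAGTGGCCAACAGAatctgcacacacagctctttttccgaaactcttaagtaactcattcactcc

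The promoters of the calcium-binding proteins and of Adarb2 are shown because a peak covered their principal TSS in both libraries, and each is printed up to that TSS or the start nearest to it. They lie at chr15:78204238-78204380 on the − strand (Pvalb), chr4:15881041-15881263 on the + strand (Calb1), chr8:110168211-110168380 on the − strand (Calb2) and chr13:8202681-8202865 on the + strand (Adarb2). The last sequence is the intergenic site beyond the 3′ end of Calb2, at chr8:110130581-110130780 and printed on the − strand, which had a higher mean signal than the Calb2 promoter.
Pvalb promoter: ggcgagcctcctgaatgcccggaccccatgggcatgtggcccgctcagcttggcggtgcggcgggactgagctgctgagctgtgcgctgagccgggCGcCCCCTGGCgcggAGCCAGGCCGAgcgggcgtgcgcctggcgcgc
Calb1 promoter: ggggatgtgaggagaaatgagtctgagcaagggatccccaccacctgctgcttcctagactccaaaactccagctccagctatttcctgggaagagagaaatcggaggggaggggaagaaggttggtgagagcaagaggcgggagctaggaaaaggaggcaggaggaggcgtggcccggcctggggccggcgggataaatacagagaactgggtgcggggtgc
Calb2 promoter: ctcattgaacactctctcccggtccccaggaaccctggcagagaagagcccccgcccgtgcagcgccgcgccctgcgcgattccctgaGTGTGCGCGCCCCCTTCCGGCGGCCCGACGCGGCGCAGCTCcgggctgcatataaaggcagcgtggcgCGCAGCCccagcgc
Adarb2 promoter: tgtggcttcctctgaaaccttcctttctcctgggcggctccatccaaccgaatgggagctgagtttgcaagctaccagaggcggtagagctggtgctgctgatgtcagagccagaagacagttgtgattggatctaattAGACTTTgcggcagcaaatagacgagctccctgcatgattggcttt
Calb2 +37.5 kb: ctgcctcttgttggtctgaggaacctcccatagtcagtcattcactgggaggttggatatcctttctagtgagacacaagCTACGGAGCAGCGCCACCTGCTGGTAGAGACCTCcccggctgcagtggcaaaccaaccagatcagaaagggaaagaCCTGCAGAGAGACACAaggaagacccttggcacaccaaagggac

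The promoters of the GABA and interneuron genes were mostly open but with low signal. A peak lay within 1 kb of a TSS in both libraries at 8 of 9 genes, all but Gad2, beside 62.7% of protein-coding genes. In replicate 2 alone all 9 had one (67.8% of protein-coding genes), and in replicate 1 alone 8 did (63.6%). In the stricter of the 2 deposited peak lists the count in both libraries was 6 of 9 (57.2% of protein-coding genes), with Gad2, Slc32a1 and Pvalb lacking a peak in at least 1 library. Counted at the most 5′ TSS alone it was 5 (57.6%). A region shared by both libraries lay in the promoter windows of 8 (62.4%). Among protein-coding genes with a promoter peak, the median of the highest promoter signal was 2.48 in replicate 1 and 1.94 in replicate 2. All 8 genes with a peak in replicate 1 and all 9 in replicate 2 lay below those medians.

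**Figure D1:**
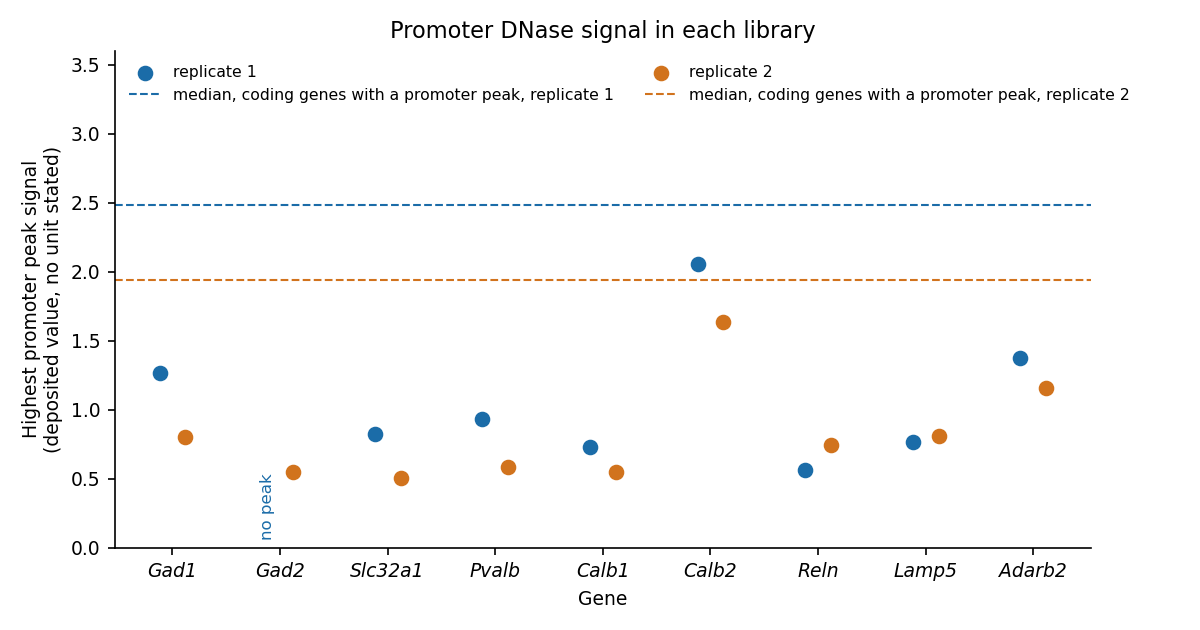
Highest peak signal within 1 kb of any TSS (y axis, deposited value with no unit stated) for each gene (x axis) in replicates 1 and 2, with dashed lines at the medians of protein-coding genes that have a promoter peak (2.48 and 1.94). Every point lies below its library's line, Calb2 is the highest at 2.06 and 1.63, and Gad2 has no peak in replicate 1.

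Among the genes of GABA synthesis and packaging, Gad1 (chr2:70553072-70602014, + strand) had a promoter signal of 1.26 in replicate 1 and 0.801 in replicate 2 (1.03 ± 0.327, SD, n = 2). Those values ranked at the 25.8 and 21.8 percentiles of protein-coding genes with a promoter peak in the same library. The shared DHS did not cover the principal TSS but was centred 0.82 kb upstream of it. In replicate 2 a further peak with a signal of 0.438 covered a pair of annotated starts 121 and 154 bp downstream of the principal TSS.

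Gad2 (chr2:22622205-22693874, + strand) was the member with the least accessible DNA. It had no promoter peak in replicate 1, and 1 peak in replicate 2 with a signal of 0.553 (percentile 13.6) at chr2:22622353-22622668, just inside the gene. The deposited segments with a false discovery rate (FDR) of at most 0.05 for local DNase cleavage gave the same split: they covered 0 bp of its promoter windows in replicate 1 and 314 bp in replicate 2, with a lowest FDR of 0.00156. The promoter windows of the other 8 genes held such a segment in both libraries (63.7% of protein-coding genes, with 64.7% in replicate 1 and 68.8% in replicate 2). Gad2 also had no shared site in its body or within 50 kb of a TSS.

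Slc32a1 (chr2:158610767-158615748, + strand) had promoter signals of 0.825 and 0.503 (0.664 ± 0.228). The highest peak of replicate 2 was not the one shared with replicate 1, which had a signal of 0.438 there. Its lowest promoter FDR was 0.0191 in replicate 1, the weakest of the 8 genes with such a segment, and 0.00039 in replicate 2. All 3 genes of GABA synthesis and packaging thus ranked in the lower part of open promoters, and Gad1 and Slc32a1 were lower in replicate 2, where Gad2 had its only promoter peak.

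Among the calcium-binding proteins, Calb2 (chr8:110137502-110168210, − strand) had the highest promoter signal of the 9 genes, 2.06 and 1.63 (1.85 ± 0.300; percentiles 42.4 and 43.5). Pvalb (chr15:78191114-78206400, − strand) reached 0.932 and 0.582 (0.757 ± 0.248), and Calb1 (chr4:15881264-15908064, + strand) reached 0.732 and 0.553 (0.642 ± 0.127). The lower Calb2 value was above the higher value of each of the other 8 genes. Pvalb was above Calb1 in each library, though in replicate 2 only narrowly. The lowest promoter FDR was 5.8e-16 and 9.9e-28 at Calb2, 5.4e-08 and 5.7e-12 at Calb1, and 2.1e-04 and 0.001 at Pvalb in replicates 1 and 2.

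Lamp5 (chr2:136052239-136069917, + strand) had a promoter signal of 0.763 and 0.811 (0.787 ± 0.0343), and Adarb2 (chr13:8202866-8768747, + strand) 1.37 and 1.15 (1.26 ± 0.153), the second highest mean of the 9. At Reln (chr5:21884454-22344702, − strand) the highest promoter peak, 0.563 and 0.747 (0.655 ± 0.130), stood at the start of a short internal transcript, 450 kb into the gene. At the principal TSS of Reln the signal was 0.416 and 0.433 (0.425 ± 0.0120), with no peak covering the TSS base in either library. These are the highest values of separate peaks on either side of the TSS, so the SD is not the spread of 1 site, and the upstream site shared by both libraries had 0.324 and 0.433 (0.378 ± 0.0774). Reln and Lamp5 were higher in replicate 2, while the other 6 genes with a value in both libraries were higher in replicate 1. The coding-gene median was also higher in replicate 1, at 2.48 against 1.94. By percentile within each library, only Gad1, Slc32a1 and Pvalb stood higher in replicate 1.

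A peak covered the principal TSS in both libraries at Pvalb, Calb1, Calb2 and Adarb2, which is 4 of 9 (37.8% of protein-coding genes). It did so in replicate 2 alone at Slc32a1 and Lamp5, and in neither library at Gad1, Gad2 and Reln. Promoters also differed in CpG content, given as the ratio of observed to expected CpG dinucleotides in the 500 bp on either side of the principal TSS. At a ratio of at least 0.6 a promoter peak stood in both libraries at 4 of 5 genes, beside 91.8% of protein-coding genes of that class. Below 0.6 it did at 4 of 4, beside 28.1%.

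The 5 CpG-rich genes were Gad1 (0.678), Gad2 (0.635), Slc32a1 (0.760), Calb1 (0.698) and Reln (1.01). Ranked by signal at the principal TSS among open promoters of their class, they stood low: Gad1 at the 18.1 and 13.8 percentiles, Slc32a1 at 9.38 and 5.90, Calb1 at 7.45 and 7.31, Reln at 1.28 and 4.21, and Gad2 at 7.31 in replicate 2. The 4 genes with a lower CpG ratio ranked higher within their class. Calb2 stood at the 69.9 and 70.8 percentiles, Adarb2 at 54.4 and 58.2, Pvalb at 39.9 and 33.4, and Lamp5 at 31.8 and 45.7. Reln had the highest CpG ratio of the 9 and the lowest signal at its principal TSS among the genes with a peak in both libraries.

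Promoter footprints numbered 28 over the 9 genes in replicate 1 and 45 in replicate 2. Protein-coding genes had a mean of 4.23 and 5.94 per gene, with medians of 3 and 5. The mean per member was below the coding-gene mean in both libraries. At least 1 was found at 7 of 9 genes in replicate 1 (61.7% of protein-coding genes) and at 9 of 9 in replicate 2 (65.9%). The mean of both totals, 36.5, was 17 when only footprints inside peaks of the stricter list were counted and 18 at the most 5′ TSS alone. Footprints and peak signal did not run in parallel between the libraries. Calb1 had 0 footprints in replicate 1 and 8 in replicate 2 although its signal was higher in replicate 1, and Slc32a1 had 1 and 7. Adarb2 went the other way, with 5 and 1, as did Reln, with 7 and 4. Over the 58 shared DHSs counted for the 9 genes, footprints covered 1667 bp in replicate 1 and 2451 bp in replicate 2. The 1111 bp common to both were 66.6% of the first and 45.3% of the second, and 40 of the 58 sites held a common base.

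The wider search gave 160 regions for the 9 genes, of which 58 were shared, 10 were found in replicate 1 only and 92 in replicate 2 only. The shared regions were 85.3% of those of replicate 1 and 38.7% of those of replicate 2, beside 89.0% and 45.2% over the genome. Regions of replicate 2 alone were low, with a median signal of 0.338 against 0.754 for the shared regions in that library. Of the 58 shared sites, 9 stood at a promoter of the member itself, 11 at a promoter of another gene and 38 at no promoter. These 38 comprised 19 in an intron of the member, 15 between genes and 4 in an intron of another gene. Their median mean signal was 0.738, beside 0.708 for all shared sites outside promoters.

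**Figure D2:**
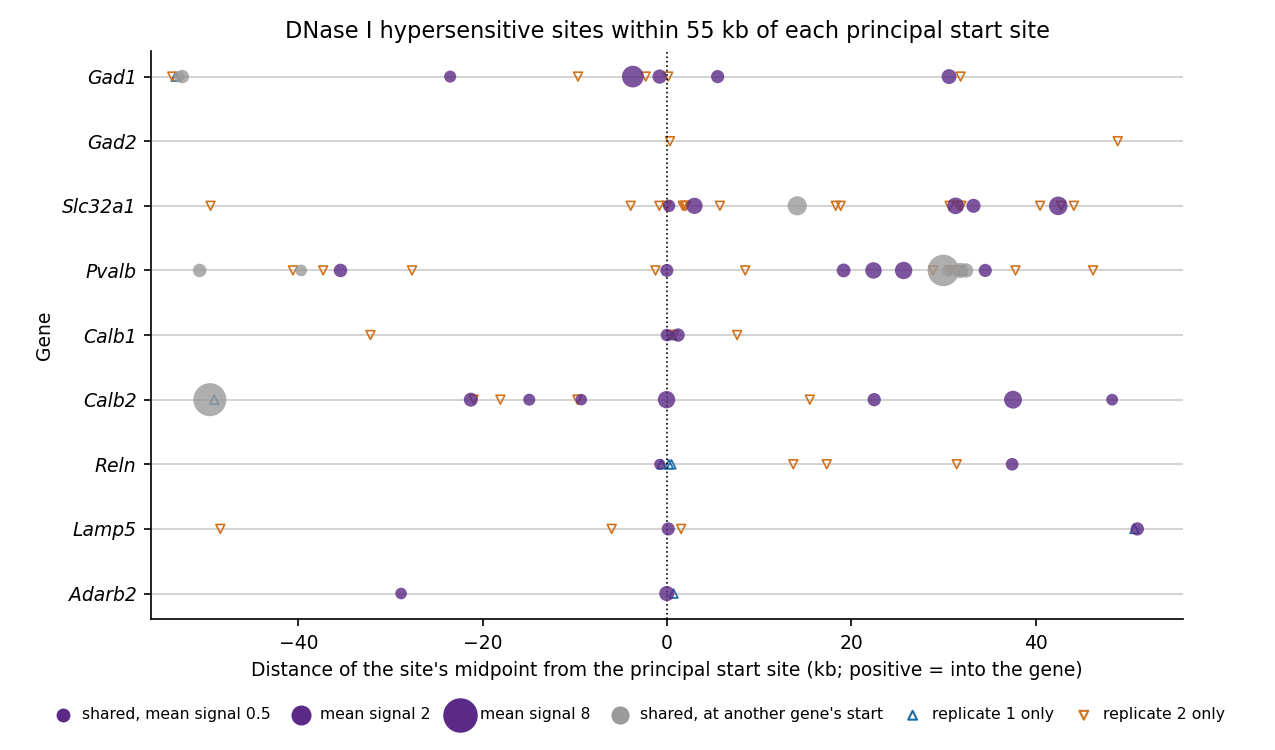
DHSs of each gene within 55 kb of its principal TSS, by distance of the site's midpoint in kb (x axis, positive values run in the direction of transcription) and gene (y axis). Filled circles are shared sites with area by mean signal, grey where they lie at another gene's start, and open triangles are sites of 1 library. Gad2 has none that is shared, while Slc32a1, Pvalb and Calb2 each have large circles downstream of the start.

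A distal DHS is a shared site that lies at no promoter and no more than 50 kb from a start of the gene in question. At least 1 was found at 8 of 9 genes, all but Gad2 (80.7% of protein-coding genes), with a mean of 3.22 and a median of 4 per gene, beside 3.14 and 3 for protein-coding genes. Calb2 had 6, Pvalb 5, Gad1, Slc32a1 and Adarb2 4 each, Reln 3, Lamp5 2 and Calb1 1. The count over the 9 genes was therefore close to that of protein-coding genes in general, and the members ranged from 0 to 6. The mean was 2 in the stricter list and, counting every site of replicate 2 without replicate 1, 8.33.

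At Gad1 the intronic site 3.72 kb upstream of the principal TSS had a signal of 3.66 in replicate 1 and 2.82 in replicate 2 (3.24 ± 0.593), at the 93.5 percentile of all shared sites. In each library it was higher than the Gad1 promoter, at 1.26 and 0.801. A site at +30.6 kb had 0.932 and 1.46, and one at +5.48 kb 0.932 and 0.652, both in introns. The sites near −52.6 kb lay at the start of Erich2 and are not counted as distal.

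At Slc32a1, the gene with the smallest body of the 9, the sites at +42.4 kb (2.68 and 1.77), +31.3 kb (2.06 and 1.25) and +2.96 kb (1.91 and 1.15) all had a higher signal than its promoter in the same library. The first 2 lie beyond the gene and nearer to the starts of Ppp1r16b and Actr5, so their assignment to Slc32a1 rests on distance alone. The site at +14.1 kb, with 2.31 and 2.46, was the promoter of Actr5.

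At Pvalb, 3 intergenic sites beyond the 3′ end of the gene, +25.7 kb (2.18 and 1.53), +22.4 kb (1.57 and 1.63) and +19.2 kb (0.932 and 0.931), were at or above the promoter signal of 0.932 and 0.582 in each library. The next gene there is Ift27, whose promoter at +30.0 kb had 6.66 and 8.33. All 3 sites lie nearer to the start of Ift27, so their assignment to Pvalb rests on distance alone. At Calb2 the intergenic site at +37.5 kb had 2.24 and 1.76, against 2.06 and 1.63 at the promoter. That site lies nearer to the start of Gm21964 than to that of Calb2. Other Calb2 sites stood at −21.3 kb (0.655 and 1.32) and in an intron at +22.5 kb (0.902 and 0.757), and the promoter of Cmtr2 at −49.6 kb had 8.37 and 8.29. Calb1 had 1 shared site outside its promoter, in an intron at +1.18 kb, with 0.709 and 0.976.

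Lamp5 had shared sites only inside the neighbouring genes, at +51.0 kb in an intron of Pak7 (0.632 and 1.03) and at −55.7 kb in an intron of Plcb4 (0.509 and 0.428). Both lie over 50 kb from the principal TSS but within that distance of another Lamp5 start. Outside its promoter, Lamp5 had no shared site in its own body.

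Reln and Adarb2 are long genes, of 460 kb and 566 kb. Gene bodies of the 9 members held 19 shared sites outside promoters, and 6 of 9 genes had at least 1 (38.5% of protein-coding genes). That share does not allow for gene length. Over all bodies summed, the members held 1.53 such sites per 100 kb, fewer than the 2.56 of protein-coding genes. Adarb2 had 9, Reln 4, Gad1 3, and Slc32a1, Calb1 and Calb2 1 each. Per 100 kb this was 1.59 in Adarb2 and 0.869 in Reln, where the median of the 567 protein-coding genes over 300 kb was 1.95 (quartiles 1.14 and 3.12). Adarb2 thus fell inside the range between the quartiles and Reln below it. The total of 19 was 8 in the stricter list and 67 in replicate 2 without replicate 1.

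The body sites of both long genes were low. The 9 in Adarb2 had mean signals of 0.259 to 0.602, with a median at the 6.00 percentile of all shared sites, and the 4 in Reln had 0.385 to 0.688, with a median at the 25.1 percentile. In Adarb2 the first shared body site lay 203 kb from the TSS, and the highest was at +358 kb (0.432 and 0.772). Beyond the 3′ end of the gene, intergenic sites at +578 kb (0.863 and 1.30) and +583 kb (1.02 and 1.00) were higher in each library than any shared site in the body. In Reln the highest were at +37.4 kb (0.624 and 0.752), +358 kb (0.748 and 0.403) and +357 kb (0.439 and 0.493). Replicate 2 had 25 body sites in Reln and 26 in Adarb2, against 4 and 11 in replicate 1, so most sites in these introns were seen in 1 library only.

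**Figure D3:**
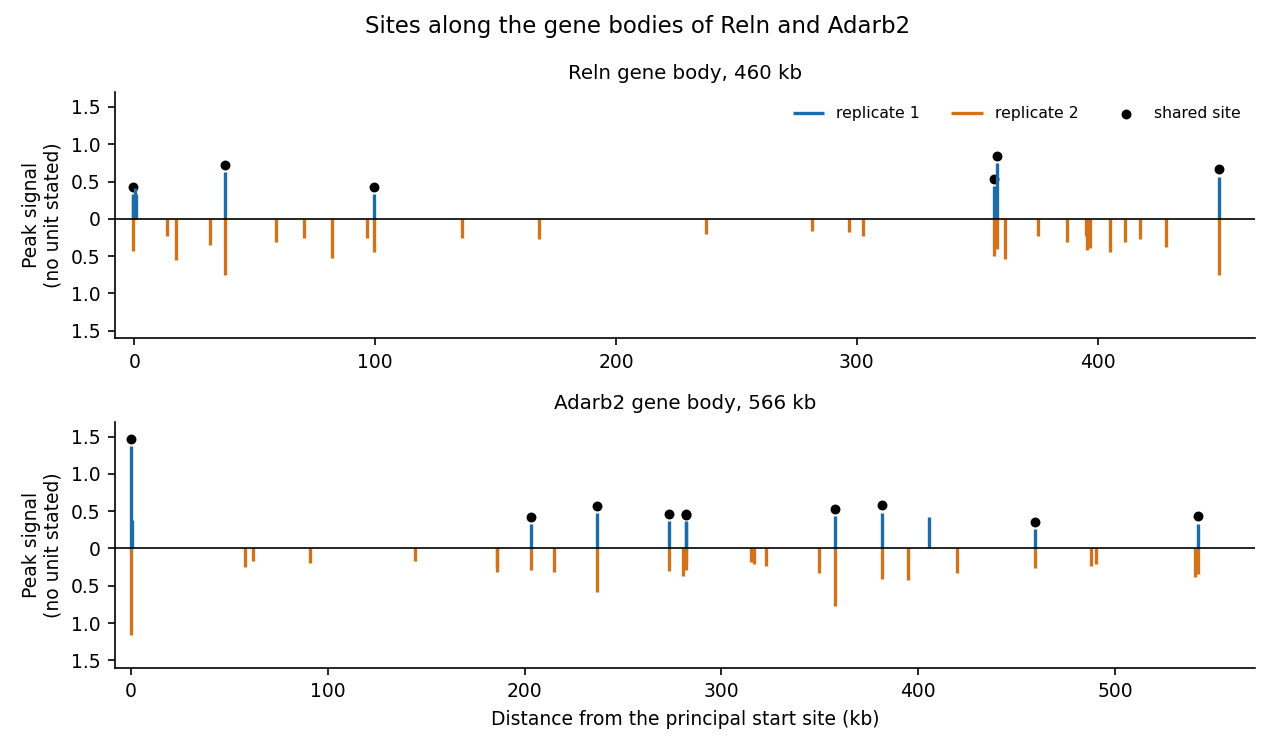
Peak signal (y axis, no unit stated) along the bodies of Reln (460 kb) and Adarb2 (566 kb) by distance from the principal TSS in kb (x axis), with replicate 1 drawn upward, replicate 2 downward and a dot on shared sites. Both genes show many low peaks of replicate 2 alone, and the Adarb2 promoter is the tallest site in its panel in both libraries.

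Sequence was compared over the 58 shared DHSs by searching both strands for consensus motifs in 200 bp around each centre. CTCF is a zinc-finger protein that marks boundaries and anchors of chromatin loops. Its 12-base consensus matched in 12 of 58 sites, or 20.7%, beside 12.4% of all 78165 shared DHSs. In 6 of the 12 the whole match lay in a footprint of both libraries. They are the Gad1 promoter and −3.72 kb sites, the Slc32a1 sites at +31.3 and +42.4 kb, the Calb2 site at +37.5 kb and the Reln site at +358 kb. In the printed sequences, counted from 1 at the 5′ end, the match reads GCCCTCTGGTGG from base 99 of the Gad1 promoter and GCCCCCTGCTGG from base 88 of the −3.72 kb site. It reads GCCACCTGGTGG from base 97 and GCCACCTAGTGG from base 90 of the Slc32a1 sites, and GCCACCTGCTGG from base 93 of the Calb2 site, each time inside capitals.

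Over the genome the consensus was more frequent at higher signal. Among the 38 sites outside promoters, 10 held it anywhere in the site (16.1% of all shared sites outside promoters), 5 of them in a footprint of both libraries. When all non-promoter sites were ranked by mean signal and cut at the quartiles, 28.9% of those above the top quartile held it, and so did 5 of the 8 member sites there. Below the lowest quartile it was 7.91%, and 1 of 12 member sites. Between them the shares were 11.2% and 16.6%, and 2 of 7 and 2 of 11 member sites, so the members show no steady rise. The non-promoter site with the highest mean signal held a consensus footprinted in both libraries at Gad1, Slc32a1 and Calb2. That of Pvalb, Calb1, Lamp5 and Reln held no match, and that of Adarb2 held one not footprinted in both. Among up to 2 next sites of each gene, only Slc32a1 +31.3 kb and Reln +358 kb held one footprinted in both. A match is a description of the letters and not evidence of binding.

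**Figure D4:**
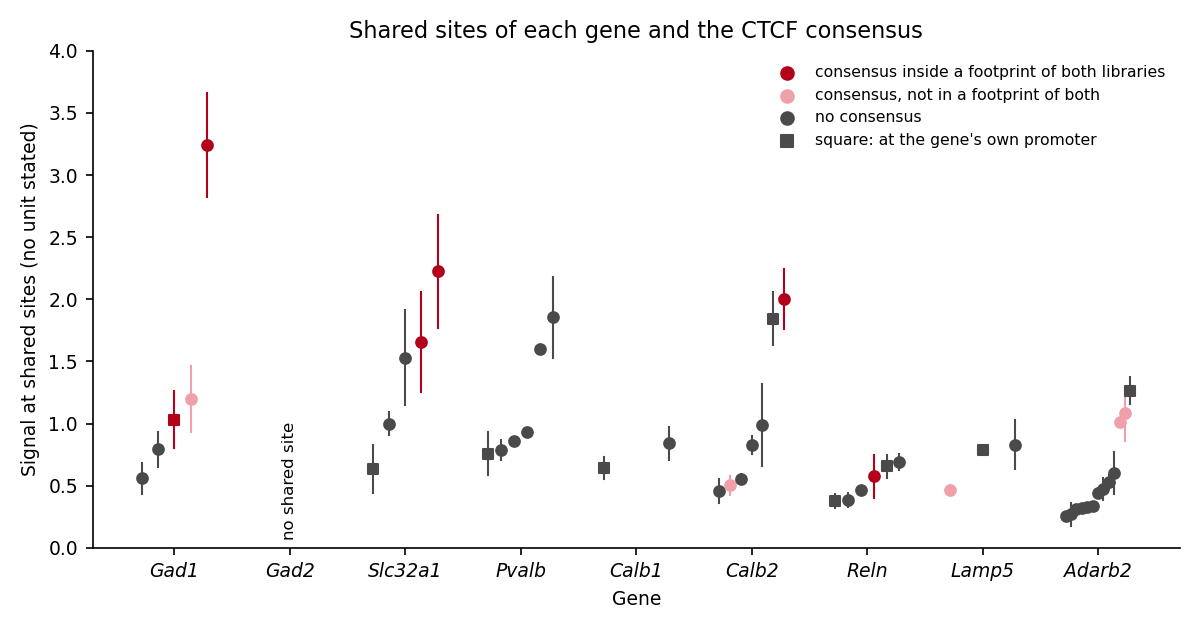
Signal (y axis, no unit stated) at the shared sites of each gene (x axis) that lie at its own promoter or at no promoter, with points at the mean and lines joining the values of the 2 libraries. Colour shows whether the site holds the CTCF consensus, and squares mark the gene's own promoter. The highest site of Gad1, Slc32a1 and Calb2 holds the consensus inside a footprint of both libraries, and that of the other genes with a shared site does not.

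Other motifs were near the genome's share or rested on few sites. The right arm of the site of REST, a repressor of neuronal genes, GGACAGC, matched in 7 of 58 (12.1% beside 4.54%), of which 0 lay in a footprint of both libraries, and the left arm, TTCAGCACC, in 0. The TAATTA core read by homeodomain factors such as the DLX and LHX families matched in 2 (3.45% beside 3.24%), 1 of them the Adarb2 promoter at base 135 of the printed sequence. A loosened MEF2 pattern, with any bases at the 4 central positions where the MEF2 consensus has A or T, matched in 3 (5.17% beside 3.33%). In the Slc32a1 +2.96 kb site it lay in a footprint of both libraries as CTAGCGATAG from base 110, whose central bases are not those of the full consensus. It was also footprinted in both at Reln +358 kb. At Reln its bases overlap those of the CTCF match, and at Slc32a1 those of the string CGCCCCCT described below. The E-boxes CAGATG and CAGCTG were in 8 and 10 sites (13.8% beside 20.2%, and 17.2% beside 18.2%), GGGCGG of the SP and KLF families in 8 (13.8% beside 19.2%) and AP-1, TGANTCA, in 5 (8.62% beside 8.43%). The CRE, TGACGTCA, and the NFI palindrome matched in none of the 58. The RFX consensus, EGR, GCGTGGGCG, and POU, ATGCAAAT, matched in 1 site each, the last of them at Slc32a1 +31.3 kb.

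A string that recurs in the printed footprints, CGCCCCCT, was chosen after the sequences were read. It starts at base 87 of the Gad1 −3.72 kb site, 104 of the Slc32a1 +2.96 kb site, 97 of the Pvalb promoter and 96 of the Calb2 promoter. Every copy of the string holds letters that fit part of the CTCF consensus, so it is not a motif separate from that of CTCF. Only in the first of these does it overlap a match to the whole consensus. Within 200 bp around the centre it was in 5 of 58 sites (8.62% beside 4.39% of all shared DHSs). Because the string was picked from these same sites, its share among them cannot show an excess. At these sites of Gad1, Slc32a1 and Calb2 it lay whole in a footprint of both libraries, and at Pvalb in one of replicate 2 alone.

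Genes of the wider GABA system showed a broader range of promoter signal. Of 9 genes that recycle, break down or respond to GABA and its precursor, 7 had a promoter peak in both libraries, beside the same 62.7% of protein-coding genes. Among them were Glul, glutamine synthetase, at 3.28 and 3.90, and Abat, the GABA transaminase, at 3.37 and 3.08. Both were above the coding-gene medians of 2.48 and 1.94, and above every one of the 9 synthesis and marker genes. Lower were Aldh5a1, which oxidises the product of Abat (1.82 and 1.05), Slc12a5, the neuronal chloride exporter (1.51 and 1.24) and the amino acid transporter Slc38a1 (1.23 and 0.826). The GABA transporters Slc6a11 and Slc6a13 had a peak in replicate 2 only, at 0.324 and 0.174.

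Receptor subunits and interneuron regulators all stood below the coding-gene medians, as the members did. All 9 GABA-A receptor subunits had a promoter peak in both libraries, which 62.7% of protein-coding genes had, led by Gabrb1 (1.46 and 1.30) and Gabrb2 (1.18 and 1.48). Of 12 interneuron transcription factors 8 did (66.7%, near that share), led by Sox6 (1.62 and 1.07) and Dlx1 (1.20 and 1.13), and Npas1 had none in either library. Of 12 interneuron peptides and other markers 7 did (58.3%, also near it), led by Cnr1, the cannabinoid receptor (1.32 and 1.05), and Cck (0.986 and 0.911). The peptide genes Sst, Vip and Npy and the synuclein gene Sncg had no promoter peak in either library. For glutamatergic neurons, Camk2a reached 3.16 and 2.43, and among markers of all neurons Syt1 reached 3.57 and 3.03 and Tubb3 3.24 and 2.65. None of the 9 synthesis and marker genes reached the Camk2a values in either library. The part of cell numbers in these levels was not tested.

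**Figure D5:**
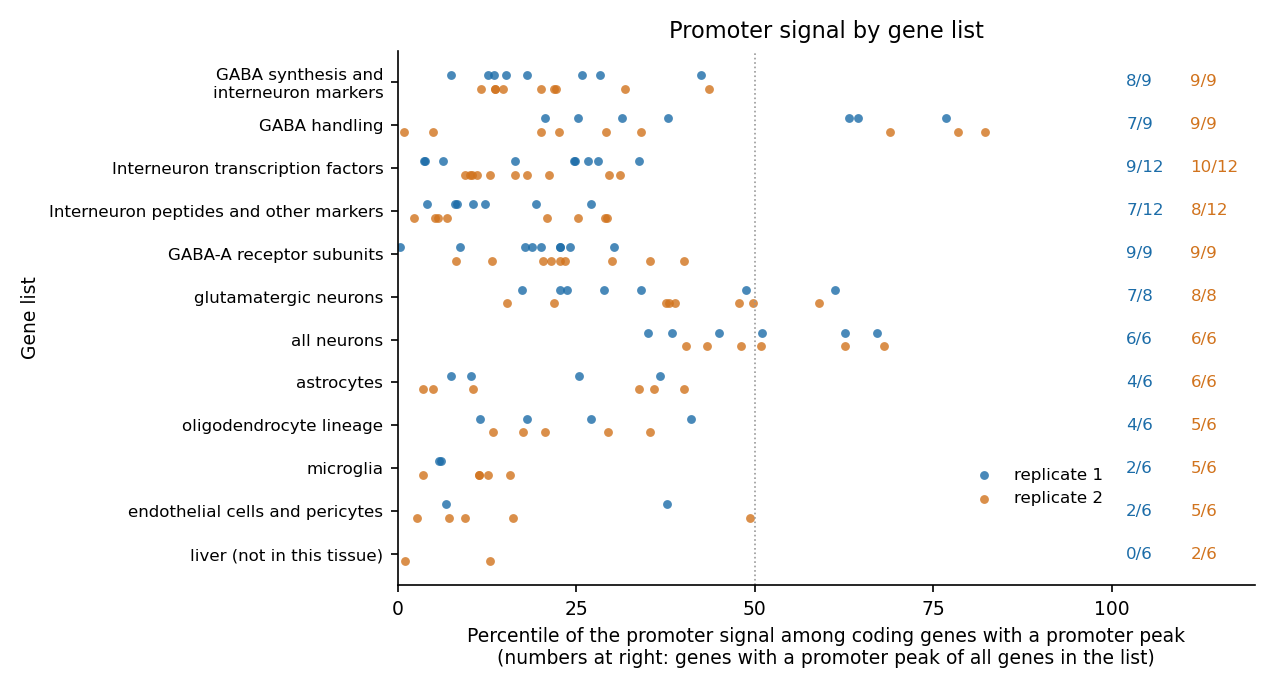
Percentile of each gene's promoter signal among protein-coding genes with a promoter peak in the same library (x axis) for the GABA synthesis and interneuron marker genes, GABA-related lists and marker lists of other cell types (y axis), 1 point per gene and library. Numbers at the right count genes with a promoter peak, which is 8 of 9 and 9 of 9 in the top row, all of them left of the dotted median line.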

How the data were processed

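DNase-seq files of 2 libraries of 1 group were analysed. Per the labels and deposited notes, the authors derived each library's files from its own mm10 alignments, without pooling. The aligner and callers were not given in the sources used here. For each library the authors deposited a larger and a stricter peak list with a signal value (unit and factor not stated), and the larger was used. They also deposited FDR values (q-values) of local cleavage, at most 0.05, and footprints with the constant 0.01 in the p-value column, used for position only. Signals were whole multiples (within 0.1) of 0.00771 in replicate 1 and 0.00498 in replicate 2. Medians over all peaks were 0.678 and 0.463.

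Genes came from GENCODE M21, without chrM. Coordinates are 1-based on mm10. Overlap meant at least 1 bp. A gene's promoter signal was its highest peak, and a percentile was its rank among protein-coding genes with a promoter peak. The principal TSS was that of the first APPRIS principal transcript. Background percentages of genes refer to all 21938 protein-coding genes, except those by CpG class, which refer to 10376 genes (ratio at least 0.6) and 11562 genes (below 0.6). The percentages of 12-gene lists refer to the list. The members and gene lists were chosen with earlier results of these data known. All 9 members were named, with every gene of GABA handling, the 2 highest genes of each other list and up to 2, first in the alphabet, without a promoter peak in either library. Some genes that this rule takes are not reported here. Glial, vascular and liver lists are given by counts, and Sst and Vip were named after their values were seen. Per member, the 3 shared non-promoter sites with the highest mean signal were named. Alternatives were the stricter list, the same number of highest peaks from each library, windows of 500 bp and 2 kb, distances of 20 and 100 kb, the TSS set, midpoint distance for sharing, and leaving out a library. Use of the principal TSS alone, and the ranking by CpG class there, were added after seeing the data. Interval and motif functions were right in 100% of cases on simulated data. Python 3.11.15, NumPy 2.4.6, pandas 2.3.3, pysam 0.24.0 and Matplotlib 3.10.9 were used.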

Additional observations from a re-analysis of the deposited data

How the results depend on the processing

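With the most 5′ TSS alone, 5 of the 9 genes had an accessible promoter in both libraries (57.6% of protein-coding genes), since Gad1, Pvalb and Lamp5 then dropped out as well as Gad2. Under the other settings the count was 6 to 8, and 8 to 9 when a library was left out. Promoter footprints, 36.5 as the mean of both libraries, were 17 in the stricter list and 18 at the most 5′ TSS, and 28 to 45 with a library left out. The mean of 3.22 distal sites became 2 in the stricter list, 1 within 20 kb and 6.56 within 100 kb, and 3.33 to 8.33 with a library left out, the higher value without replicate 1. The 19 body sites became 8 in the stricter list and 10 with equal numbers of peaks, and 21 to 67 with a library left out, again highest without replicate 1. The number of members with a low-FDR promoter segment stayed within 6 to 9. Of 58 alternative promoter signals from both libraries, 54 moved by less than the spread between them. The exceptions were Calb1 in the 2 kb window (0.854) and Reln at the most 5′, coding or principal TSS (0.425). Of the 54, only Slc32a1 changed at all, to 0.631 in the 500 bp and 0.674 in the 2 kb window. The others picked the same peaks again, so their agreement does not show that the levels are stable. A further 6 alternatives left no value in at least 1 library: Slc32a1 and Pvalb in the stricter list, Gad1 in the 500 bp window, and Gad1, Pvalb and Lamp5 at the most 5′ TSS. Of 99 alternative counts for the other lists, 88 were within 1.5 times the first. No paired analysis was possible because there is 1 group. The unknown depth limits all levels.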
